A study of Mus musculus with 10 samples.

Results

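The 10 genes described here are the calcium pumps that refill the sarcoplasmic reticulum, the small proteins that set their speed, and the carriers that move calcium out of the cell. They were taken by symbol from the deposited gene table, in which all 10 of the 10 named genes were found among 23337 genes, and all 10 passed the filter on low counts that left 13084 genes for testing. Right atria of 10 mice were sequenced, 4 labelled control and 6 labelled Tbx5 mutant, to ask which genes depend on the T-box transcription factor Tbx5 in the adult atrium. In the mice labelled Tbx5 mutant, exon 3 of Tbx5 was to be removed by a Cre recombinase that tamoxifen activates and that the R26 promoter drives, which is active in all cell types and not in cardiomyocytes alone. One protocol is given for both groups, with 0.167 mg of tamoxifen a day injected intraperitoneally on 3 days and tissue taken after 1 week. The label of the control mice reads only as control, without naming a Cre or floxed allele. The paper on this mouse model used control mice with the R26 CreERt2 allele, but does not report these right atrial libraries, so the alleles of the control mice here are not known. Strain is given as mixed, and age as 8 to 10 weeks in one label field and 6 to 8 weeks in another. The titles name 2 males and 2 females among the control mice and 3 of each among the mutant mice. Each library carries the label of 1 mouse, so the spread given below is that between mice.

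With each heartbeat calcium enters the cytoplasm of a cardiomyocyte, mostly from the sarcoplasmic reticulum, and has to leave it again for the muscle to relax. SERCA pumps, encoded by the Atp2a genes, return most of it to the reticulum. Phospholamban (Pln) and sarcolipin (Sln), both membrane micropeptides, slow these pumps, and sarcolipin is known as the atrial one of the pair. The calcium that entered from outside leaves through the sodium-calcium exchanger Slc8a1 and, to a lesser extent, through the plasma membrane calcium pumps of the Atp2b genes.

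The libraries held between 5703775 and 7095141 counts. In 1 of them, the mutant male M3, 38.9% of the counts fell on Rn45s, the precursor of ribosomal RNA, against 0.268% to 1.49% in the other 9, which left it 3484550 counts on other genes. Sex labels of all 4 control mice were contradicted by their Xist reads (7850 and 10149 under the label male, 5 and 14 under the label female) and Ddx3y reads, and those of the 6 mutant mice were not. Tbx5 itself went against the group labels, at 205 ± 17.8 CPM (reads relative to a TMM-scaled library total, mean ± SD, n = 4) in mice labelled control and 394 ± 83.3 CPM (n = 6) in mice labelled Tbx5 mutant, and was higher in 6 of 6. The counts cover the whole gene and not exon 3 alone, so they do not measure the excision. Every direction below is therefore that of the mice labelled Tbx5 mutant relative to the mice labelled control.

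Of the 10 genes, 3 were called lower in the mice labelled Tbx5 mutant (Atp2a1, Atp2a2 and Sln) and 1 was called higher (Pln). A call required an adjusted p under 0.05 in edgeR's quasi-likelihood test, a fold change over 1.5 and a mean of the authors' normalized signal over 1 in the control mice. Of all 13084 genes tested, 15.7% were called, which is 7.16% lower and 8.5% higher. At any fold change the adjusted p was under 0.05 for 5 of the 10 genes, 4 lower and 1 higher, against 31.3% of all genes, 15% lower and 16.3% higher. The median log2 fold change was -0.27 over the 10 genes and -0.00495 over all genes tested. The tissue is bulk atrium, so a smaller number of cells of a type and less RNA per cell cannot be told apart.

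**Figure D1:**
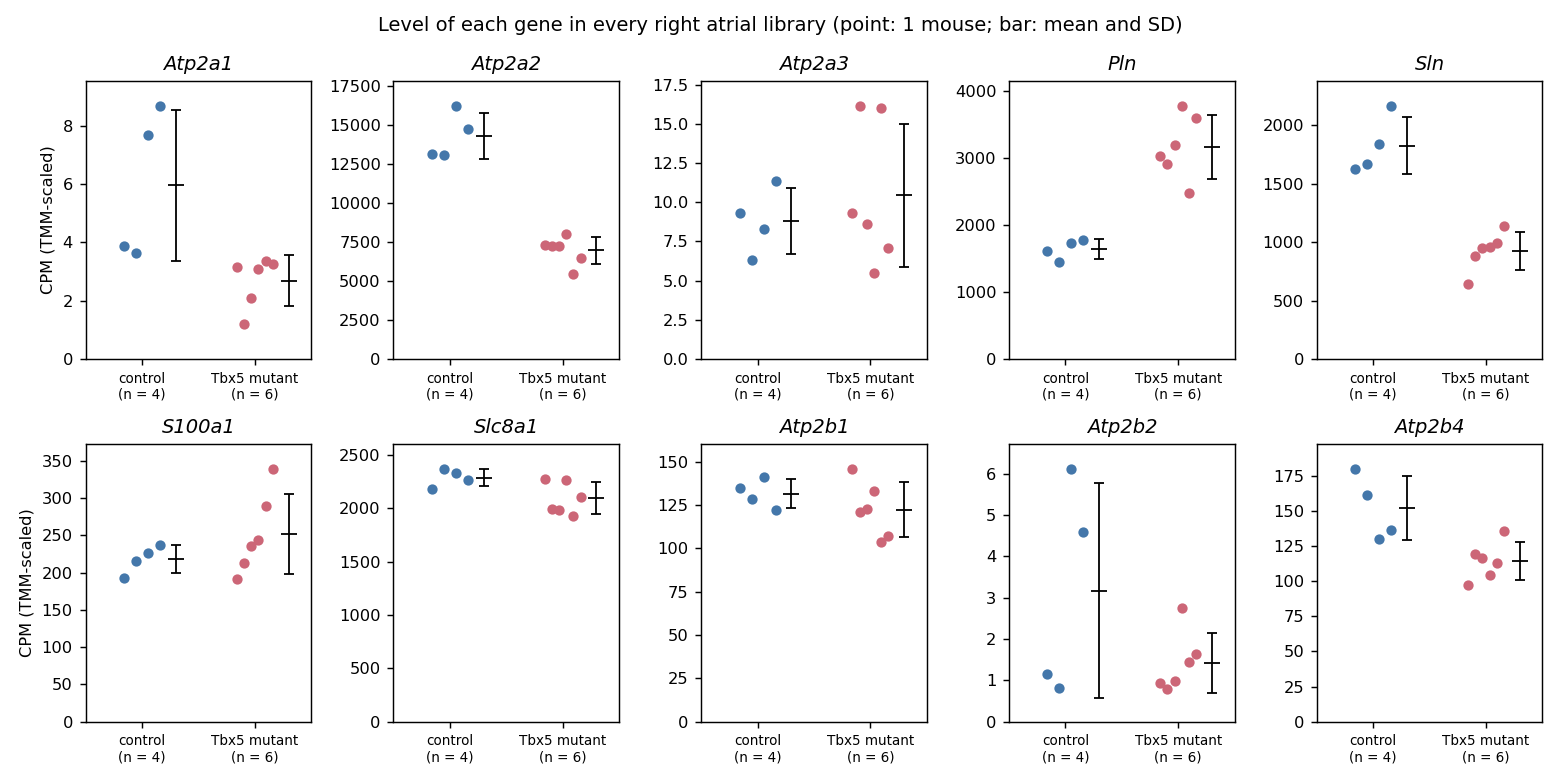
CPM of each of the 10 genes (y axis, linear, from 0) in the 4 mice labelled control and the 6 labelled Tbx5 mutant; each point is 1 mouse, and the bar beside each group is its mean and SD. The groups are separate for Atp2a1, Atp2a2, Pln and Sln, and overlap for the other genes, with 5 of 6 mutant mice below every control mouse for Atp2b4.

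Atp2a2 encodes SERCA2, the pump of the heart, and was the most abundant of the 10 genes. Its level was 13110, 13070, 16180 and 14700 CPM in control M1, M2, F1 and F2. In the mice labelled Tbx5 mutant it ranged from 5466 to 8036 CPM with a median of 7218. Every mutant mouse lay below every control mouse, and the lowest was the mutant male M2. The log2 fold change was -1.04 (SE 0.14, 95% interval -1.35 to -0.73, adjusted p = 0.000152 by edgeR), which is 0.487 of the control level. The two-sided exact permutation test over mice gave p = 0.00952, the smallest that 4 mice against 6 allow. Leaving out 1 library at a time moved the log2 fold change between -1.09 and -0.97. Outside Rn45s, the gene took 1.36% to 1.59% of all counts in control mice and 0.616% to 0.822% in mutant mice.

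SERCA2 was also nearly the whole of the family. Per kilobase of transcript it held 99.85% to 99.92% of the summed level of the 3 SERCA genes in control mice and 99.64% to 99.88% in mutant mice. Counts per gene do not separate its cardiac and its general splice form.

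Atp2a1, the SERCA1 pump of fast skeletal muscle, was present only at a trace. It had 22 to 64 reads in the control mice and 9 to 23 in the mutant mice. The control mice had 3.86, 3.64, 7.68 and 8.66 CPM in the order M1, M2, F1, F2, and the mutant mice 1.20 to 3.35 CPM (median 3.12). The groups did not overlap, but the control mice themselves fell apart, with F1 and F2 well above M1 and M2. Its log2 fold change was -1.18 (SE 0.31, 95% interval -1.86 to -0.51, adjusted p = 0.0119 by edgeR, exact permutation p = 0.00952). It was -0.93 with an adjusted p of 0.0555 when the control mouse F2 was left out. Of 7 markers of skeletal muscle, 3 were tested and 0 passed the test, their summed level was 11.1 to 17.3 CPM in control and 9.94 to 13.7 CPM in mutant mice, and the defining myosins Myh1, Myh2 and Myh4 had at most 3 reads in any library.

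Reads of the SERCA genes can be shared, which bears on a gene with so few of them. A window of 50 bases, about the length of the reads, lay within 2 mismatches of Atp2a1 at 0.248% of the positions of the Atp2a2 transcript. At 0 positions were the 2 genes identical over such a window. The Atp2a1 reads themselves numbered 0.0279% to 0.0589% of the Atp2a2 reads in control mice and 0.0166% to 0.0613% in mutant mice. A share of near-matching positions is not a rate of misplaced reads. The closest such window is shown with its single mismatch in capitals, at coding bases 2254 to 2303 of Atp2a1 and 2251 to 2300 of Atp2a2 in GENCODE M21; the same stretch of Atp2a3 is identical to that of Atp2a1.
Atp2a1: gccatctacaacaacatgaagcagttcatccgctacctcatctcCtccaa
Atp2a2: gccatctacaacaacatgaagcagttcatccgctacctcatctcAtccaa
In addition, 763 bases or 21.9% of the exon bases of Atp2a1 overlap those of Rabep2 on the opposite strand. The TruSeq kit named in the protocol does not mark strand, whereas the paper on this mouse model describes its own reads as stranded. Whether the counts here separate the strands is not known. Rabep2 had 10.4 to 13.3 CPM in control and 12.3 to 15.4 CPM in mutant mice (log2 fold change 0.18, adjusted p = 0.268). The part of shared reads in the Atp2a1 difference was not tested, and the gene's level is uncertain.

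Atp2a3, the SERCA3 pump of blood cells, platelets and endothelium, had 9.29, 6.29, 8.31 and 11.4 CPM in the control mice. Its mutant values ran from 5.49 to 16.1 CPM (median 8.97). The mutant mice spread on both sides of the control mice, and F2 and M2 were the highest of all 10. With a log2 fold change of 0.26 and a 95% interval from -0.34 to 0.87 (adjusted p = 0.504), neither no change nor a rise of 1.5-fold lay outside the interval. Summed platelet markers were highest in mutant M2, at 137 CPM against a median of 49.6 CPM over the mutant mice. They ran from 28.4 to 74.6 CPM over the control mice, and 0 of 4 markers passed the test. Atp2a3 itself was highest in mutant F2, at 16.12 CPM, with 16.02 CPM in M2. Their part in the Atp2a3 level was not tested.

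Phospholamban and sarcolipin moved in opposite directions. The coding sequences are short enough to show in full, from the GENCODE M21 transcripts Pln-201 on chromosome 10 (forward strand) and Sln-201 on chromosome 9 (forward strand) of GRCm38. Capitals mark in Pln the codons 16 and 17, the serine and the threonine whose phosphorylation by protein kinase A and CaM kinase II releases the pump, and in Sln the start and the stop codon.
Pln: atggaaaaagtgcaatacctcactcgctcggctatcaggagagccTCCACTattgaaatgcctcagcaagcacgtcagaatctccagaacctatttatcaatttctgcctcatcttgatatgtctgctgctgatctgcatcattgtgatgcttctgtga
Sln: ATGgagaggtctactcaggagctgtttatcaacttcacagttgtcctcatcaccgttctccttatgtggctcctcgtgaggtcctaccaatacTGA
The open reading frames have 52 codons in Pln and 31 in Sln, against 1044 in Atp2a2. Both genes have 2 exons in these transcripts.

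Pln rose in the mice labelled Tbx5 mutant. Control M1, M2, F1 and F2 had 1613, 1439, 1730 and 1776 CPM. The mutant mice ranged from 2475 to 3766 CPM (median 3108). Every mutant mouse was above every control mouse, mutant M1 being the highest and mutant M2 the lowest of the 6. Its log2 fold change was 0.95 (SE 0.14, 95% interval 0.65 to 1.25, adjusted p = 0.000232 by edgeR, exact permutation p = 0.00952), a fold of 1.93. It was the only one of the 10 genes called higher, and would not have been called at a fold over 2 in this fit. The sum of 4 ventricular markers was 140 to 256 CPM in control mice and 109 to 931 CPM in mutant mice, highest in the same mouse M1 through Myh7, while Irx4 had at most 1 read in any library. Of these markers 1, Myl2, passed the test, from 1.72 to 6.63 CPM in control mice to 6.51 to 33.7 CPM in mutant mice. Without mutant M1 the log2 fold change of Pln was 0.88 (adjusted p = 0.000402). Pln exons overlap those of 2 genes annotated on the opposite strand, Cep85l over 5.11% and Gm47644 over 59.6% of its exon bases, and neither symbol was matched in the table.

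Sln fell. The control mice had 1625, 1665, 1842 and 2161 CPM, and the mutant mice 643 to 1139 CPM (median 954). All mutant mice lay below all control mice, the lowest being mutant F1. Sln had a log2 fold change of -0.98 (SE 0.15, 95% interval -1.29 to -0.66, adjusted p = 0.000264 by edgeR, exact permutation p = 0.00952), or 0.508 of the control level. In this fit Sln, like Pln, would not have been called at a fold over 2. Of 6 genes listed for cardiomyocytes of the atrium, 3 were lower at an adjusted p under 0.05 (Myl7, Myl4 and Nppa, at log2 fold changes of -2.73, -0.44 and -0.65). Another 2 were higher (Actc1 at 0.90 and Tnnt2 at 1.12), and Myh6 had a log2 fold change of 0.10 (adjusted p = 0.711 by edgeR). Actc1, Tnnt2 and Myh6 are not particular to the atrium, so the sum of the list does not measure atrial identity. The summed level of the 6 was 66570 to 79690 CPM in control and 56570 to 70190 CPM in mutant mice. Leaving out 1 library at a time kept the log2 fold change of Sln between -1.04 and -0.88.

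Since both inhibitors act on the same pump, their level was also set against Atp2a2 within each mouse, a ratio that does not depend on the scaling of the library. A trend of fold change on transcript length does not cancel in such a ratio, and the ratios were not recomputed with that trend removed. Pln stood at 0.123, 0.110, 0.107 and 0.121 of the Atp2a2 CPM in the control mice and at 0.403 to 0.554 in the mutant mice, without overlap. On the log2 scale the ratio went from -3.12 ± 0.10 (SD, n = 4) to -1.14 ± 0.16 (n = 6), a 3.94-fold difference (exact permutation p = 0.00952, adjusted over 4 ratios 0.019). Per kilobase of the longest coding transcript, Pln was at 0.206 to 0.236 of Atp2a2 in control mice and at 0.774 to 1.07 in mutant mice.

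The ratio of Sln to Atp2a2 behaved otherwise. It was -2.97 ± 0.15 (n = 4) on the log2 scale in control and -2.92 ± 0.39 (n = 6) in mutant mice, a difference of 0.05 (exact permutation p = 0.829, adjusted p = 0.829). The mutant mice ran from below to above the control mice, with F1 the lowest and M2 and M3 the highest. Leaving out 1 library at a time moved the difference between -0.04 and 0.17, so its sign is not fixed. With the trend on transcript length removed, the log2 fold changes were -1.175 for Sln and -0.959 for Atp2a2. In the order of levels per kilobase, Atp2a2 came first in both groups, and Pln and Sln changed places. Atp2a2 had 3180 CPM per kilobase in control and 1550 in mutant mice, Sln 1383 and 703, and Pln 702 and 1354. In the mutant group Pln, at 1354 ± 202, lay within its own SD of Atp2a2, at 1550 ± 196. In the control group each of the 3 differed from its neighbour by more than the SDs.

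**Figure D2:**
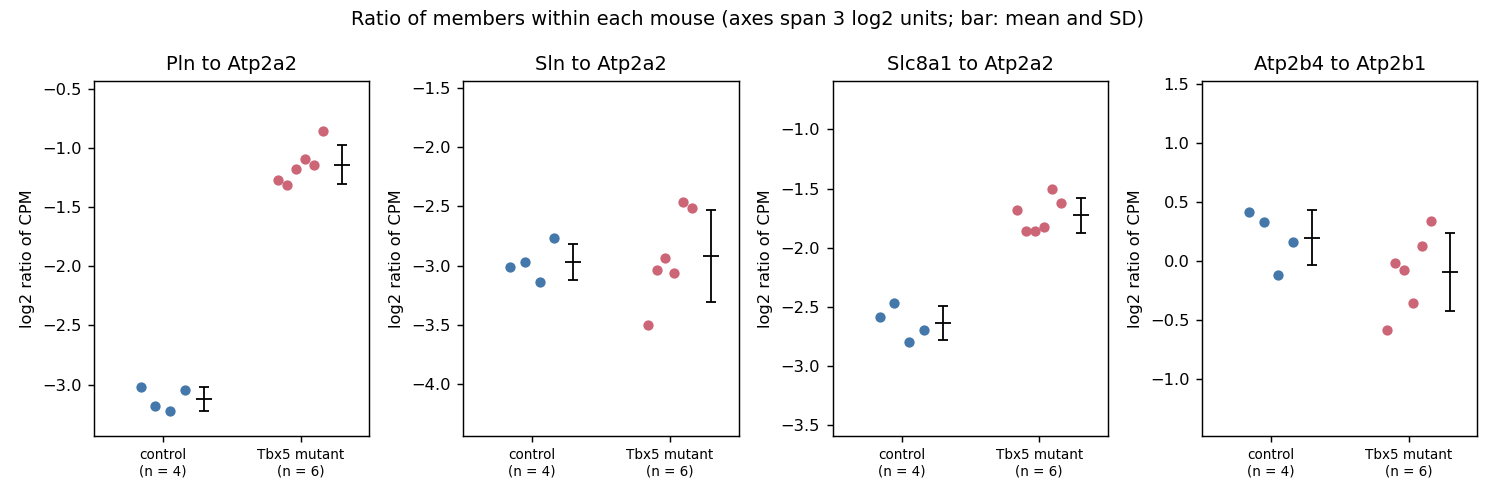
Log2 ratio of the CPM of 2 genes within each mouse (y axis, every panel spanning the same number of log2 units), for mice labelled control and Tbx5 mutant; points are mice, bars the mean and SD. Pln to Atp2a2 and Slc8a1 to Atp2a2 are higher in all 6 mutant mice than in any control mouse, while Sln to Atp2a2 and Atp2b4 to Atp2b1 overlap.

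S100a1, a calcium-binding protein that raises SERCA and ryanodine receptor activity, did not pass the test. It had 193, 216, 226 and 238 CPM in the control mice and 191 to 339 CPM in the mutant mice (median 240). The mutant mice included both the lowest and the 3 highest values. S100a1 had a log2 fold change of 0.21 (95% interval -0.10 to 0.51, adjusted p = 0.29), and -0.12 once each library's trend on transcript length was removed.

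Slc8a1, the main route of calcium out of a cardiomyocyte, showed the least spread of the 10 genes among control mice. Its control values were 2179, 2367, 2331 and 2267 CPM. The mutant mice lay between 1926 and 2278 CPM (median 2048). In 4 of the 6 mutant mice the level was below every control mouse, and 2 overlapped. The log2 fold change was -0.13 (95% interval -0.35 to 0.10, adjusted p = 0.37 by edgeR), an interval that leaves out a 1.5-fold change in either direction. The sign was reversed with the trend on transcript length removed (0.31, adjusted p = 0.0485). Its annotated coding transcripts differ widely in length, the longest having 18464 and the next 3339 bases, so its level per kilobase was 124 or 685 CPM in control mice depending on which is used, below or above that of S100a1 at 323.

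Against the pump, the exchanger stood higher. The ratio of Slc8a1 to Atp2a2 was 0.166, 0.181, 0.144 and 0.154 in the control mice and 0.275 to 0.352 in the mutant mice. The difference of 0.91 on the log2 scale, or 1.88-fold, separated 6 of 6 mutant mice from the control mice (exact permutation p = 0.00952, adjusted over 4 ratios 0.019). As the 2 ratios to Atp2a2 that differ share this gene, they are not independent of its own fall.

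The plasma membrane calcium pumps were far below the SERCA pump, with Atp2b1 at 18.5, Atp2b4 at 13.0 and Atp2b2 at 0.357 CPM per kilobase in control mice. On the longest coding transcripts Atp2b1, the general member, held 55.0% to 62.6% of the family's summed level per kilobase in control mice. In mutant mice it held 56.1% to 70.9%. These shares depend on the transcript used. With the next-longest transcript of Atp2b4, of 8292 in place of 11725 bases, Atp2b4 was at 18.3 CPM per kilobase in control mice, near Atp2b1. The level of Atp2b1 was 135, 128, 141 and 122 CPM in control and 103 to 146 CPM in mutant mice (median 122). The mutant mice lay on both sides of the control mice, and the log2 fold change was -0.11 (95% interval -0.32 to 0.11, adjusted p = 0.455).

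Atp2b4, the PMCA4 pump, had 180, 162, 130 and 137 CPM in the control mice and 97.3 to 136 CPM in the mutant mice (median 115). All mutant mice but M3 lay below all control mice. The log2 fold change of -0.41 (SE 0.11, 95% interval -0.65 to -0.17) had an adjusted p of 0.013 by edgeR and an exact permutation p of 0.019, and at 0.751 of the control level it did not reach the fold needed for a call. The adjusted p was 0.0605 without the control mouse M1, and with the trend on transcript length removed the log2 fold change was -0.07 (adjusted p = 0.757). The ratio of Atp2b4 to Atp2b1 within mice differed by -0.29 on the log2 scale (exact permutation p = 0.181, adjusted p = 0.241), with groups that overlapped.

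Atp2b2, the PMCA2 pump, known from nerve and the inner ear, was at 5 to 39 reads in control and 6 to 16 reads in mutant mice. The control mice had 1.14, 0.827, 6.12 and 4.602 CPM in the order M1, M2, F1, F2, and the mutant mice 0.800 to 2.74 CPM (median 1.22). The control mice labelled female were the only ones above every mutant mouse, and they are the same mice that were high for Atp2a1. The log2 fold change of -1.20 (SE 0.52, 95% interval -2.30 to -0.09) had an adjusted p of 0.0923, so the gene was not called. Leaving out the control mouse M1 or M2 brought the adjusted p to 0.0467 and 0.0339, while leaving out F1 or F2 brought the log2 fold change to -0.69 (adjusted p = 0.362) and -0.94 (adjusted p = 0.243). Nerve markers summed to 6.57 to 10.0 CPM in control and 3.54 to 8.36 CPM in mutant mice, and their part in the Atp2b2 level was not tested.

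**Figure D3:**
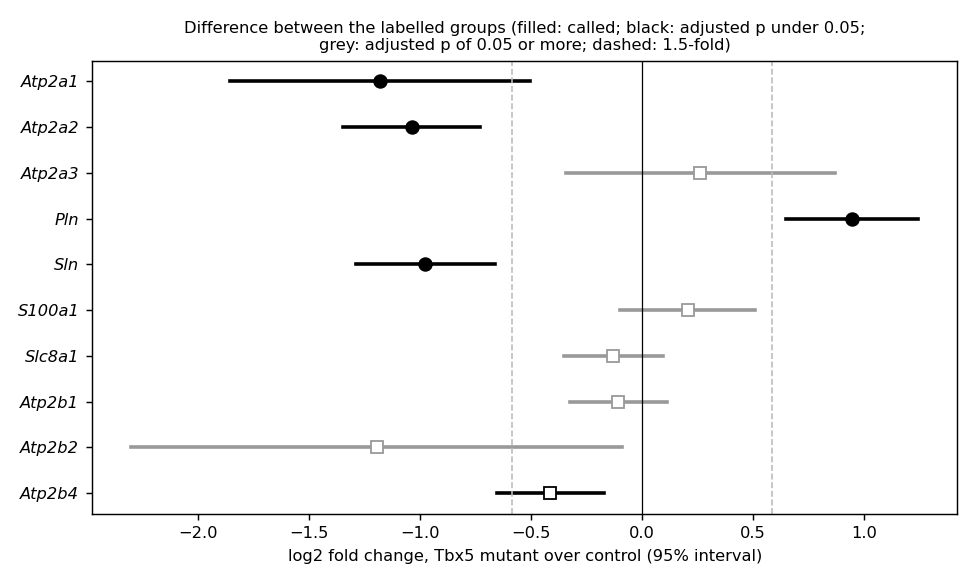
Log2 fold change of the 10 genes (x axis, mice labelled Tbx5 mutant over control) with its 95% interval; filled circles are called, open squares are not, black marks an adjusted p under 0.05 and grey one of 0.05 or more, and dashed lines stand at a fold of 1.5. Pln at 0.95 lies opposite to Atp2a2 at -1.04 and Sln at -0.98, the intervals of Slc8a1 and Atp2b1 are the narrowest, and that of Atp2b2 is the widest.

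Markers of other cell types also differed between the groups. Smooth muscle markers summed to 102 to 152 CPM in control and 161 to 586 CPM in mutant mice, with 2 of 5 higher (Acta2 and Tagln). Macrophage markers summed to 307 to 508 CPM in control and 487 to 751 CPM in mutant mice, with 3 of 4 higher. Of 5 fibroblast markers Col1a1 was higher and Pdgfra lower, their sum being 2285 to 2873 CPM in control and 2415 to 3257 CPM in mutant mice. Of 5 endothelial markers 1 was higher, the sum being 947 to 1313 CPM in control and 1053 to 1307 CPM in mutant mice. Lymphocyte markers summed to 1.22 to 3.14 CPM and 0.874 to 2.74 CPM, and adipocyte markers to 0.470 to 4.14 CPM and 0 to 20.8 CPM, the last in mutant M2. The part of these cells in the levels of the 10 genes was not tested.

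The partners of these genes were read from 3 lists. Of all 13084 genes tested, 7.16% were called lower and 8.5% higher. At any fold 15% were lower and 16.3% higher at an adjusted p under 0.05. The counts called in these small lists were near the 15.7% called over all genes, and the calls do not set the lists apart. Of 13 tested regulators of SERCA and phospholamban, 0 were called lower and 2 higher, and at any fold 2 were lower and 5 higher at an adjusted p under 0.05. Hspb6, a small heat shock protein of muscle, rose from 34.7 to 65.9 CPM in control mice to 95.6 to 133 CPM in mutant mice (log2 fold change 1.16, SE 0.16, adjusted p = 0.000134). Ppp1r3a, which anchors protein phosphatase 1 to glycogen and the sarcoplasmic reticulum, rose from 330 ± 49.2 CPM (n = 4) to 595 ± 220 CPM (n = 6), with a log2 fold change of 0.85 (adjusted p = 0.0127 by edgeR). Of the kinase genes in the list, Camk2d was at -0.44 (adjusted p = 0.00285), Prkaca at 0.37 (adjusted p = 0.0317) and Prkacb at -0.055 (adjusted p = 0.574), all short of a fold of 1.5. The median log2 fold change of the list was 0.09.

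Of 16 tested genes of the sarcoplasmic reticulum store, 1 was called lower and 2 higher. Ryr2, the channel that releases calcium from the reticulum, had 4743 to 6029 CPM in control mice and 1147 to 2318 CPM in mutant mice (median 1546), and its log2 fold change was -1.65 (SE 0.19, adjusted p = 2.99e-05). Casq2, the cardiac calsequestrin that holds calcium in the store, rose from 859 to 1121 CPM in control mice to 1485 to 1819 CPM in mutant mice (log2 fold change 0.81, adjusted p = 0.000159). Casq1, its skeletal counterpart, had 2.72 to 9.88 CPM in control and 42.1 to 107 CPM in mutant mice, a log2 fold change of 3.31 (SE 0.35, adjusted p = 1.7e-05) that stood beside the low skeletal muscle markers given above. At any fold 2 genes of this list were lower and 3 higher, and the median log2 fold change was -0.00217.

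Of 11 tested genes among other calcium exporters and their partners, 2 were called lower and 0 higher, both being potassium-dependent sodium-calcium exchangers. Slc24a4 had 9.43 to 14.2 CPM in control and 1.60 to 3.76 CPM in mutant mice (log2 fold change -2.11, SE 0.23, adjusted p = 2.02e-05). Slc24a2 had 9.61 to 13.9 CPM in control and 3.27 to 9.46 CPM in mutant mice (log2 fold change -1.05, SE 0.24, adjusted p = 0.00497). At any fold 3 were lower and 1 higher, and the median log2 fold change was -0.28. The partner subunit of the plasma membrane pumps neuroplastin (Nptn) had a log2 fold change of -0.0017 (adjusted p = 0.991), and basigin (Bsg), another, one of 0.34 (adjusted p = 0.0421).

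**Figure D4:**
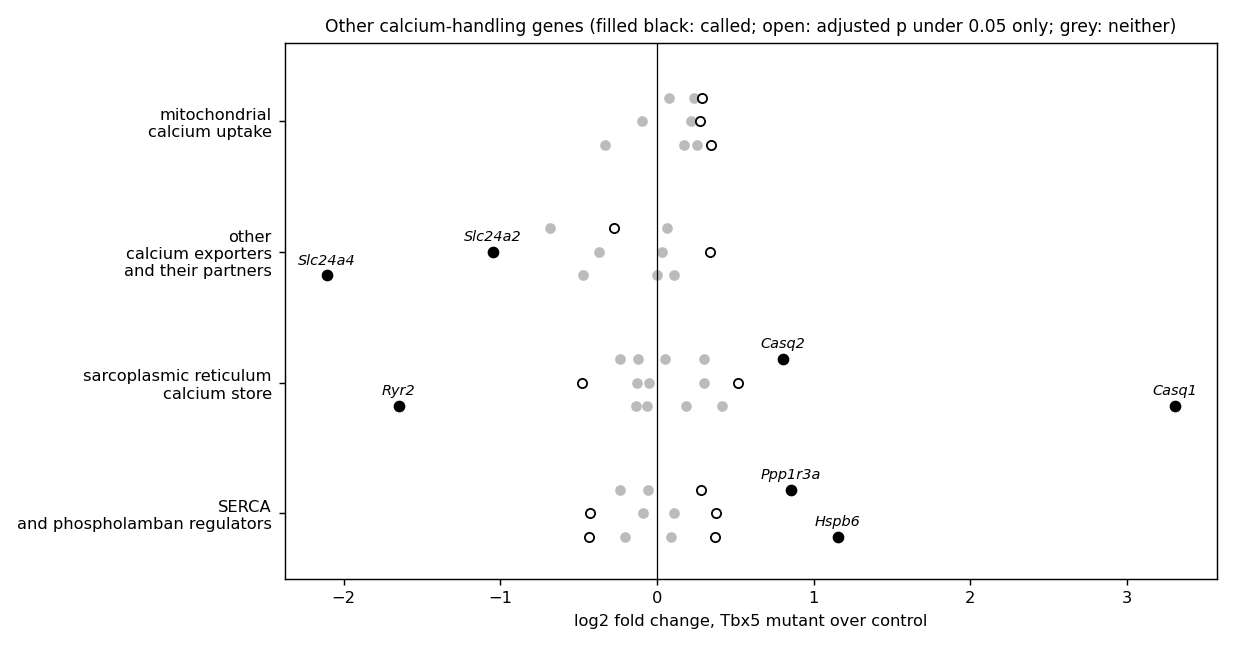
Log2 fold change (x axis, mice labelled Tbx5 mutant over control) of the tested genes of 4 calcium-handling lists, 1 point per gene, offset vertically only to keep points apart. Named filled points are called, with Casq1 at 3.31 and Slc24a4 at -2.11 the farthest to either side, open points pass the adjusted p alone, and grey points pass neither.

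Among the other 13083 genes, those whose log2 CPM over the 10 libraries, centred on its mean, differed least from that of Atp2a2 were Nr3c2, Trim11 and Stat5b, with root mean square differences of 0.08, 0.09 and 0.09. Those nearest to Pln were Ivns1abp, Epha2 and Pkp2, at 0.13, 0.16 and 0.17, and those nearest to Sln were Pip4k2c, Slc20a2 and Nudt8, at 0.15, 0.16 and 0.16. These profiles follow the difference between the groups. Stat5b had a log2 fold change of -1.09 and Ivns1abp one of 1.04.

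**Figure D5:**
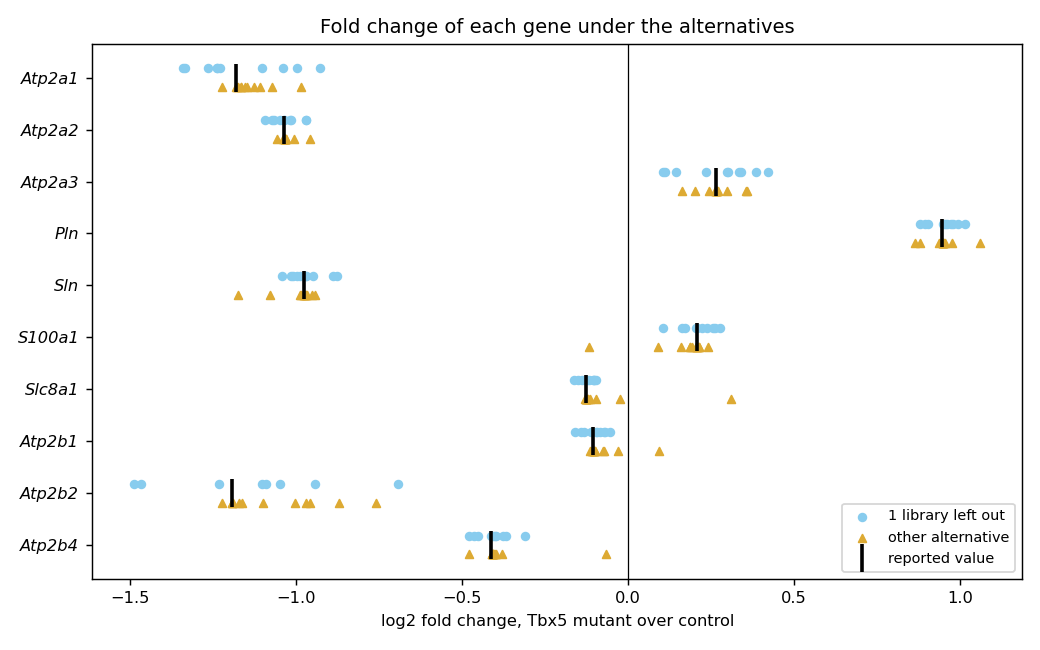
Log2 fold change of each gene (x axis) as reported (black bar), with 1 library left out (circles) and under the other ways of processing (triangles). Atp2a2, Pln and Sln stay on their side of 0 and beyond 0.86 in size throughout, whereas S100a1, Slc8a1 and Atp2b1 each cross 0 once, with the transcript length trend removed.

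The genes lie on 9 chromosomes, Pln and Atp2b1 sharing chromosome 10. In GRCm38, Atp2a2 lies on the reverse strand at chr5:122453513-122502225, Pln on the forward strand at chr10:53337667-53345987, Sln on the forward strand at chr9:53850164-53854560 and Slc8a1 on the reverse strand at chr17:81373105-81738377. Atp2a1 lies on the reverse strand at chr7:126445858-126463108.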

How the data were processed

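Total RNA of right atria was sequenced from 10 mice. Of the table the authors deposited, the counts per gene were used, whole reads without normalization. The signal per gene and library, deposited as counts divided by size factors, served only for the call threshold. The authors' own comparison columns (log2 fold change, its score, p-values and fold ratio, all as deposited) were not used. The submitters' processing notes name FastQC, TopHat2 2.0.11, featureCounts, DESeq2 and mm10, without their order. The labels name both a TruSeq kit and a ribosomal depletion. TopHat2's placing of reads shared by paralogues and the counting of overlapping genes can change low counts. No columns were left unmapped.

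Counts were compared with edgeR 4.0.16 in R 4.3.3, by its quasi-likelihood test with TMM scaling, its expression filter and a prior count of 0.125, over all 10 libraries without covariates, with Benjamini-Hochberg adjustment over the 13084 genes. Standard errors were obtained by dividing each log2 fold change by the root of its F statistic. Ratios and single levels were compared by two-sided exact permutation over mice. Alternatives were a prior count of 5, other filters (a mean over 0, a mean of at least 50), other scalings, no Rn45s, DESeq2 1.42.0, limma 3.58.1 with a prior count of 1, sex labels, the replicate block, libraries left out, stricter thresholds, and, added after the data were seen, removal of length or GC trends (lowess span 0.4).

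Some list and marker genes are not reported here. The members and lists were chosen with earlier results of these data known. Of list genes, the called ones were named, at most 2 in each direction per list, and genes outside that rule (Camk2d, Prkaca, Prkacb, Nptn, Bsg, Mcur1, Vdac2, Mcu and the overlap partners) were chosen after their values were seen. Coordinates, lengths (longest coding transcript) and coding sequences came from GENCODE M21, promoters from RefSeq (GRCm38.p6). At 5703775 to 7095141 counts a library, genes under about 50 reads carry wide counting error. Reads have no molecular identifiers.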

Additional observations from a re-analysis of the deposited data

Results flagged for a closer look

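In an interaction term of group and sex label, tested after the data were seen, Atp2b2 differed between the labelled sexes, the log2 fold change being 3.50 higher in mice labelled male than in mice labelled female (adjusted p = 0.022 by edgeR, 38 genes past 0.05). The control mice labelled female had 6.12 and 4.60 CPM and those labelled male 1.14 and 0.827 CPM, on 5 to 39 reads. With the sex labels of the control mice exchanged, as their Xist and Ddx3y reads have them, the interaction was -1.31 (adjusted p = 0.549, 1 gene past 0.05), and the term for sex in a fit with both was 1.73 (adjusted p = 0.0564). The same interaction was 1.73 for Atp2a1 with labels as given (adjusted p = 0.155) and lay between -0.28 and 0.63 for the other 8 genes, none with an adjusted p under 0.05.

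Of 30 groups of values tested for a mouse standing apart from the rest of its group, 0 were found, where chance gives about 1.5.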

How the results depend on the processing

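Atp2a2, Pln and Sln kept direction and an adjusted p under 0.05 in every alternative run. Over 11868 genes, fold change and transcript length had a Spearman correlation of -0.326, and of 0.00438 with the length trend removed. With it removed, S100a1 was at -0.12 (adjusted p = 0.392), Slc8a1 at 0.31 (0.0485) and Atp2b1 at 0.091 (0.403), each reversed, and Atp2b4 at -0.07 (0.757). Sln at -1.175 was then larger in size than reported, and Atp2a2 at -0.959 and Pln at 0.864 were smaller. In the reported fit, at a fold over 2, the count called higher was 0, and 2 were called lower, without Sln. The genes called lower numbered 2 to 4 and those past the adjusted p 4 to 6. With 1 library left out, the ratio difference of Sln to Atp2a2 ran from -0.037 to 0.171, crossing 0 without control F1 (-0.00103), mutant M2 (-0.037) or mutant M3 (-0.0281). Atp2b2 passed at -1.004 with sex as a covariate and the control labels exchanged (adjusted p = 0.0234), and at -1.47 and -1.49 without control M1 or M2, but was -0.69 (0.362) without control F1 and -0.76 (0.276) by limma with a trend. Atp2a1 was -0.93 without control F2 and left untested at a mean count of at least 50. Atp2b4 was -0.31 without control M1.

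Mice of the same label and number did not deviate together (mean correlation -0.00712, from -0.047 to 0.036 over 4 pairs). These pairs rest on the sex labels as given, which the reads of the control mice contradict. With the control labels exchanged, the correlations were 0.276 (control M1 and mutant F1), 0.265 (F1 and M1), 0.223 (F2 and M2) and 0.030 (M2 and F2). Whether the numbers pair the mice was not tested under those labels and is not known. With the replicate block, built on the labels as given, Atp2a1 was -1.13 (adjusted p = 0.0641 by edgeR). In that fit 903 genes were called lower and 1054 higher in place of 937 and 1112. Of the fold changes and ratios under an alternative, 280 kept direction and side of the threshold, 6 reversed, 4 weakened and 3 others became past the threshold. Among the reversed ones, Slc8a1 with the length trend removed also became past it (adjusted p = 0.0485 by edgeR). Of 119 counts of genes under an alternative, 102 equalled the reported count and 17 did not. Depth limits Atp2a1, Atp2a3 and Atp2b2, at 5 to 121 reads a library. The cause of these shifts was not tested.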

Other observations

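Mitochondria also take up calcium, through the uniporter. Of 10 tested genes of this uptake, 0 were called, against 15.7% of all genes tested. At any fold 0 were lower and 3 higher at an adjusted p under 0.05, where 31.3% of all genes passed in either direction. Among these 3, Mcur1 had a log2 fold change of 0.28 (adjusted p = 0.0387 by edgeR) and Vdac2, an outer membrane channel, one of 0.29 (adjusted p = 0.0351). The uniporter pore itself, Mcu, went from 24.6 to 27.7 CPM (adjusted p = 0.228). The median log2 fold change of the list was 0.23.

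RefSeq promoters were matched for 8 of the 10 genes, in 11 windows of 250 bases before a start site in GRCm38.p6, with no entry for Atp2a2 or Sln. The T-box core AGGTGT, searched on both strands, was in 2 of the 11 windows, 196 bases before the start of Atp2a1 and 212 bases before a start of Atp2b2, against 11.9% of 32544 windows of all genes. The longer AGGTGTGA, which contains the core, was in 0 of the 11 and in 1.12% of all windows.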
